A study of Mus musculus with 10 samples.

Results

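The genes described here are 9 genes of late neutrophil maturation. S100a8 and S100a9 encode the subunits of calprotectin, Ltf, Lcn2, Camp, Ngp and Chil3 encode proteins made with the secondary granules, and Mmp8 and Mmp9 encode neutrophil collagenase and gelatinase B. They were chosen by the measured values, for their higher levels in HET libraries, from the 52096 genes of the deposited table. Their difference between the groups is therefore given as a description with no test. Each identifier was found once, and all 9 were among the 13041 genes with at least 1 FPKM in at least 5 of the 10 libraries.

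The study measured RNA in hematopoietic stem cells (HSCs) of mouse bone marrow, sorted per the labels as CD48-CD150+LSK cells. The HET group holds 5 libraries from mice with the floxed Nup214 allele over a wild-type allele together with the Tie2-Cre transgene (Nup214fl/+,Tie2-Cre). The FL group holds 5 libraries from mice with the same floxed allele and no Cre (Nup214fl/+). Both groups carry the floxed allele, and the Tie2 promoter drives Cre in endothelial as well as blood-forming cells. No group has Cre without the floxed allele, so the effects of the deletion and of Cre cannot be told apart. The labels give neither the age of the animals nor whether the libraries of a group are separate mice, so a p-value here covers the spread between libraries alone. Nup214 encodes a nucleoporin on the cytoplasmic side of the nuclear pore, and the series title names leukemia stem cells and ferroptosis as its subject.

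Neutrophils make their granules in sequence as they mature. Azurophil granules, loaded with myeloperoxidase and serine proteases, form at the promyelocyte stage. Secondary granules with lactoferrin, and then gelatinase granules, form at later stages, when most azurophil genes are already shut off. C/EBP-epsilon is known in mice as a factor needed for the secondary granule genes. Calprotectin lies in the cytosol, where it is among the most abundant proteins of neutrophils, and it is also made by monocytes. It binds zinc, manganese and calcium and withholds metals from microbes. HSCs lie far upstream of these stages, and their sort gate is built to leave out mature cells.

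Nup214, the targeted gene, had a lower mean in HET libraries. HET libraries 1 to 5 held 31.2, 9.74, 17.4, 16.3 and 9.13 FPKM of Nup214, against 65.8, 55.3, 52.2, 43.9 and 30 FPKM in FL libraries 1 to 5. The groups overlapped only by HET 1 and FL 5, so Nup214 does not check the labels of these 2 libraries. The mean was 16.8 ± 8.89 FPKM in HET and 49.4 ± 13.4 FPKM in FL (SD, n = 5 each), so that HET stood at 33.9% of the FL mean (exact two-sided permutation test on log2 values, p = 0.0159, where 0.00794 is the smallest p this design allows). In limma across all tested genes the adjusted p of Nup214 was 0.472. Of the sort-gate genes, Kit averaged 154 ± 35.8 FPKM in HET and 145 ± 24.2 FPKM in FL, Ly6a averaged 95.8 ± 54.7 FPKM in HET and 56.5 ± 10.9 FPKM in FL, and Slamf1 averaged 3.97 ± 1.02 FPKM in HET and 3.81 ± 1.06 FPKM in FL. Cd48, whose protein the gate selects against, averaged 84.7 ± 22.6 FPKM in HET and 85.1 ± 11.2 FPKM in FL.

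The libraries labelled HET 1 and FL 5, which overlapped in Nup214, also stood apart from their groups. On the first principal component of the tested genes, which held 42.6% of the variance, HET 1 scored 46.4 and lay with FL 1 to 4 (19.6 to 42.4). FL 5 scored -33.3 and lay with HET 2 to 5 (-41.2 to -28.5). A mix-up of samples and a batch cannot be told apart from the labels. The 9 granule genes followed this split in part: FL 5 had the highest sum of FL, while HET 1 had one of the 2 highest sums of HET and HET 3 the lowest of HET. Their values are given below with and without HET 1 and FL 5. Both libraries were singled out by their values, so calls made without them are no support for a difference. HET 3 was also the shallowest library by the smallest step of the FPKM values, 0.113 FPKM per kilobase against 0.0475 to 0.0775 in the other 9. The part of depth in its low values was not tested. HET 3 and FL 2, with the lowest sums of their groups, also had the most genes at 1 FPKM or more (15589 and 15725). The other libraries had 12150 to 13412 such genes, and the part of this trait in the sums was not tested. Over all tested genes, 0 of 13041 (0%) passed limma at an adjusted p under 0.05, and 188 higher (1.44%) and 1167 lower (8.95%) genes had an unadjusted p under 0.05. The median log2 fold change of all tested genes was -0.17, and 0.02 after median-ratio scaling, which changed the unadjusted calls to 666 higher and 860 lower, a share of 43.6% higher in place of 13.9%.

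Promoter sequence is shown for 4 of the genes. S100a8 and S100a9 are neighbours in 1 gene cluster, and Ltf and Ngp varied most closely with the rest of the 9 between libraries. Other genes of the 9, such as Camp and Chil3, also varied with the rest and are not shown. Each line gives the 250 bases before the RefSeq transcription start in GRCm38.p6, 5′ to 3′ on the gene's strand. Capitals mark matches to motifs. The motif of the C/EBP factors was searched as TTGCNNAA on both strands. The core of the PU.1 site was searched as GAGGAA on both strands, so that it reads as its reverse complement where it lies on the other strand. The TATA box was searched as TATAAA on the gene's strand, and no matches overlapped in these windows. The S100a8 window is chr3:90668821-90669070 on the plus strand, the S100a9 window chr3:90695722-90695971 on the minus strand, the Ltf window chr9:111019042-111019291 on the plus strand and the Ngp window chr9:110419558-110419807 on the plus strand.
S100a8: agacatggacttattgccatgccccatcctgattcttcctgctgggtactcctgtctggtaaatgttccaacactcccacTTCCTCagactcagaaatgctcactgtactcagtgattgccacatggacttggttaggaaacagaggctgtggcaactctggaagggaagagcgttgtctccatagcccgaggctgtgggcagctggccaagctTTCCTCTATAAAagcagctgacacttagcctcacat
S100a9: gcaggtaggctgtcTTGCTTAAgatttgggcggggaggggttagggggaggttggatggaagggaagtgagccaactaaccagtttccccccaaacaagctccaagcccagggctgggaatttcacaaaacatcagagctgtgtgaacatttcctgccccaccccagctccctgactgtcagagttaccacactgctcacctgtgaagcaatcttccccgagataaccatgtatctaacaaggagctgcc
Ltf: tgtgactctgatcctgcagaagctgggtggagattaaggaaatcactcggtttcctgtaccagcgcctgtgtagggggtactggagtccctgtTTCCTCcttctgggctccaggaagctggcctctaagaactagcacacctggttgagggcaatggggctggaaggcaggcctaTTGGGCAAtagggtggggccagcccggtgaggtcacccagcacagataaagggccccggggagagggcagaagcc
Ngp: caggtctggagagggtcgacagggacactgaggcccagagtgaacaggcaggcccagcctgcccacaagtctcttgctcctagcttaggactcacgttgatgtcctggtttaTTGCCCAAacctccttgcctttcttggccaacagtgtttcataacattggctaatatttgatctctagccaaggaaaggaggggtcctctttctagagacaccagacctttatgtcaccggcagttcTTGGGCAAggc
The S100a8 window held PU.1 letters at 170 to 165 and at 36 to 31 bases before the start, and the second match abuts a TATA box at 30 to 25 bases. The S100a9 window held C/EBP letters at 236 to 229 bases before the start. The Ltf window held C/EBP letters at 75 to 68 and PU.1 letters at 157 to 152 bases. The Ngp window held C/EBP letters at 138 to 131 and at 11 to 4 bases. These positions count from the RefSeq starts. The GENCODE gene starts of S100a8 (90668978), Ltf (111019271) and Ngp (110419747) lie inside their windows. The TATA box and second PU.1 match of S100a8, and the second Ngp match, lie past those GENCODE starts. Of the 9 genes, 8 had a promoter in the table. C/EBP letters stood in 5 of the 8 windows (S100a9, Ltf, Lcn2, Ngp and Mmp8) and in 9.56% of all 32851 windows of that length. PU.1 letters stood in 4 of the 8 (S100a8, Ltf, Lcn2 and Mmp8) and in 23.3% of all windows, and a TATA box stood in 1 of the 8 (S100a8) and in 7.59% of all. All 4 windows shown held a match, while the Camp and Chil3 windows held none. A match of letters is a description and not a measured binding site.

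Calprotectin transcripts were the most abundant of the 9 in both groups and were higher in HET. S100a8 (ENSMUSG00000056054, chr3:90668978-90670035, plus strand, GRCm38) encodes the calcium-binding subunit also called MRP8. HET libraries 1 to 5 held 402, 215, 132, 360 and 456 FPKM of S100a8, against 133, 62.7, 123, 118 and 167 FPKM in FL libraries 1 to 5. All but HET 3 lay above every FL library, and HET 3 lay within the FL range. The mean was 313 ± 135 FPKM in HET and 121 ± 37.6 FPKM in FL (SD, n = 5 each), 2.60 times the FL mean, and the log2 fold change of FPKM + 1 was 1.30 with a standard error of 0.36.

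S100a9 (ENSMUSG00000056071, chr3:90692632-90695721, minus strand) encodes the partner subunit, MRP14, which stabilises S100a8 protein. S100a9 stood at 132, 90.4, 33.2, 113 and 164 FPKM in HET libraries 1 to 5, against 15.3, 15.1, 32.2, 27.2 and 66.8 FPKM in FL libraries 1 to 5. Again 4 of 5 HET libraries lay above every FL library, HET 3 lay below FL 5 only, and all 5 HET libraries lay above the FL median. The mean was 107 ± 49.2 FPKM in HET and 31.3 ± 21.2 FPKM in FL, with a log2 fold change of 1.78 (standard error 0.50), the highest of the 9. FPKM is per length of transcript, so the levels of the subunits can be set side by side. S100a8 was 3.04, 2.38, 3.99, 3.19 and 2.77 times S100a9 in HET libraries 1 to 5, against 8.69, 4.16, 3.81, 4.32 and 2.50 times in FL libraries 1 to 5. The ratios of the groups overlapped, and S100a8 was the higher subunit in all 10 libraries.

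**Figure D1:**
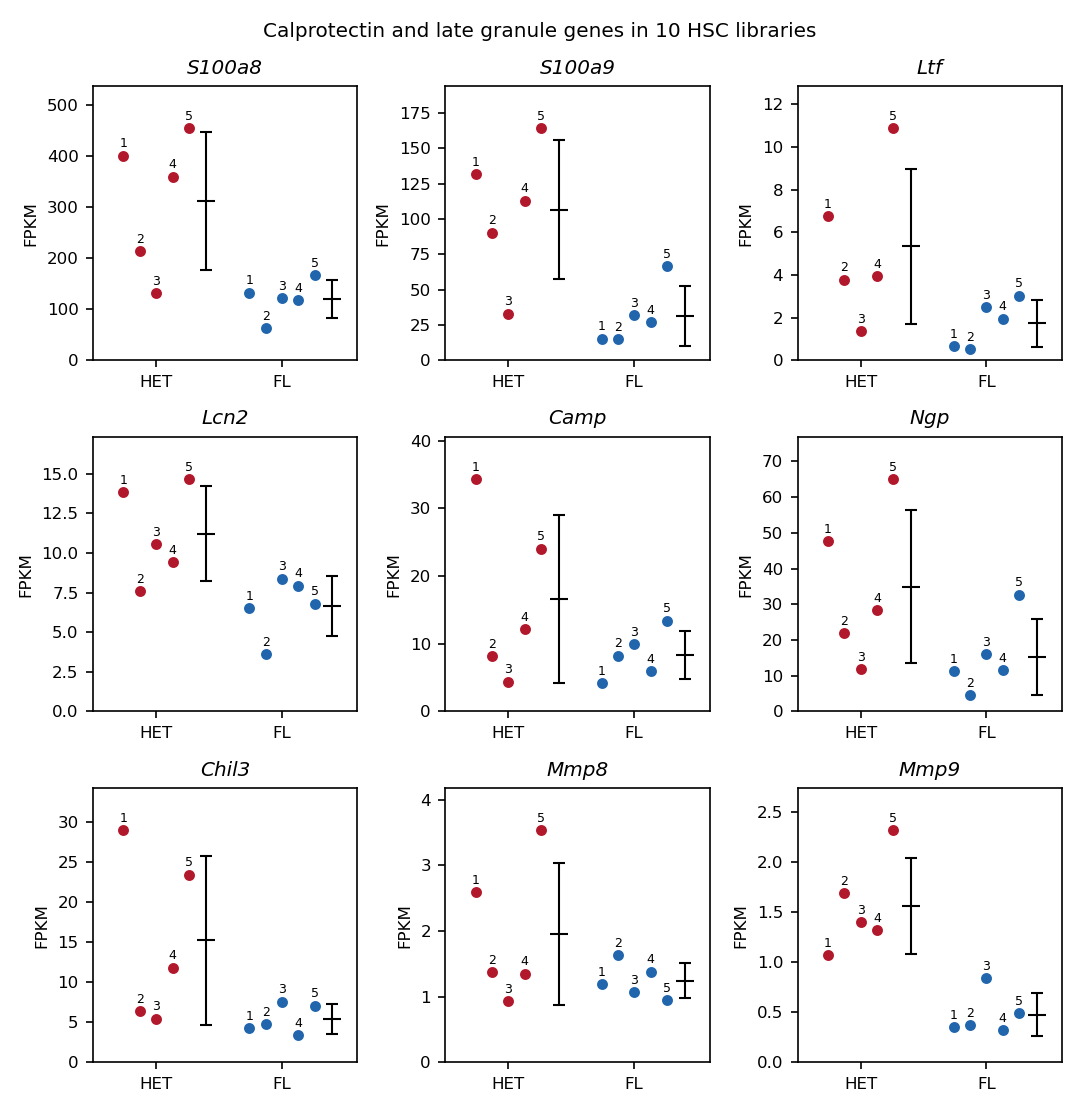
Level of each of the 9 genes in FPKM (vertical axes, linear, a scale for each gene) in the 5 HET libraries (red, left) and the 5 FL libraries (blue, right), numbered by library, with the mean and SD beside each group. HET 1 and HET 5 lay above every FL library for 9 of 9 genes, HET 3 for 2 of 9, and Mmp9 alone had no overlap between the groups.

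Ltf, Lcn2, Camp, Ngp and Chil3, expressed as secondary granules form, also had higher means in HET, with log2 fold changes from 0.68 to 1.16. Ltf (ENSMUSG00000032496, chr9:111019271-111042767, plus strand) encodes lactoferrin, the iron-binding protein that defines the secondary granule. Ltf stood at 6.75, 3.78, 1.38, 3.96 and 10.9 FPKM in HET libraries 1 to 5, against 0.68, 0.54, 2.50, 1.96 and 3.03 FPKM in FL libraries 1 to 5. HET 3 lay below the FL median and the other 4 HET libraries above every FL library. The mean was 5.35 ± 3.63 FPKM in HET and 1.74 ± 1.10 FPKM in FL, 3.07 times the FL mean, with a log2 fold change of 1.12 (standard error 0.42).

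Lcn2 (ENSMUSG00000026822, chr2:32384633-32388252, minus strand) encodes lipocalin 2, which binds bacterial siderophores and so keeps iron from bacteria. Lcn2 stood at 13.9, 7.61, 10.6, 9.41 and 14.7 FPKM in HET libraries 1 to 5, against 6.53, 3.61, 8.39, 7.94 and 6.80 FPKM in FL libraries 1 to 5. Here HET 2, not HET 3, was the library within the FL range. The mean was 11.2 ± 2.99 FPKM in HET and 6.65 ± 1.87 FPKM in FL, with a log2 fold change of 0.68 (standard error 0.23). Its coefficient of variation, 26.6% in HET and 28.1% in FL, was the lowest of the 9 in HET.

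Camp (ENSMUSG00000038357, chr9:109847379-109849617, minus strand) encodes the cathelicidin precursor, cut on release to an antimicrobial peptide. Camp stood at 34.3, 8.13, 4.41, 12.2 and 24.0 FPKM in HET libraries 1 to 5, against 4.17, 8.25, 9.93, 5.94 and 13.4 FPKM in FL libraries 1 to 5. Only HET 1 and HET 5 lay above every FL library, and HET 2 and HET 3 lay below the FL median. The mean was 16.6 ± 12.4 FPKM in HET and 8.34 ± 3.59 FPKM in FL, with a log2 fold change of 0.69 (standard error 0.48).

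Ngp (ENSMUSG00000032484, chr9:110419747-110423012, plus strand) encodes neutrophilic granule protein, a secondary granule protein of the cystatin superfamily whose gene lies on the same chromosome as Camp and Ltf. Ngp stood at 47.7, 22.0, 11.8, 28.3 and 65.1 FPKM in HET libraries 1 to 5, against 11.3, 4.62, 16.1, 11.6 and 32.7 FPKM in FL libraries 1 to 5. All 5 HET libraries lay above the FL median, while FL 5 lay above HET 2, HET 3 and HET 4. The mean was 35.0 ± 21.3 FPKM in HET and 15.3 ± 10.6 FPKM in FL, with a log2 fold change of 1.16 (standard error 0.53).

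Chil3 (ENSMUSG00000040809, chr3:106147554-106167564, minus strand) encodes Ym1, a chitinase-like lectin of mouse neutrophil precursors and activated macrophages. Chil3 stood at 29.0, 6.4, 5.47, 11.8 and 23.4 FPKM in HET libraries 1 to 5, against 4.26, 4.78, 7.59, 3.41 and 7.08 FPKM in FL libraries 1 to 5. HET 2 and HET 3 lay within the FL range but above its median. The mean was 15.2 ± 10.5 FPKM in HET and 5.42 ± 1.82 FPKM in FL, with a log2 fold change of 1.12 (standard error 0.42). Chil4 is a near-identical neighbour of Chil3, listed at 0 to 0.72 FPKM, and no source used here states how shared reads were split between them, so the Chil3 values are uncertain to that extent.

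The matrix metalloproteinases, Mmp8 of secondary and Mmp9 of tertiary granules, were the lowest of the 9. Mmp8 (ENSMUSG00000005800, chr9:7558456-7568485, plus strand) encodes neutrophil collagenase. Mmp8 stood at 2.59, 1.37, 0.93, 1.35 and 3.54 FPKM in HET libraries 1 to 5, against 1.19, 1.63, 1.07, 1.38 and 0.95 FPKM in FL libraries 1 to 5. HET 1 and HET 5 alone lay above the FL range, and HET 3 was the lowest of all 10. The mean was 1.96 ± 1.08 FPKM in HET and 1.24 ± 0.268 FPKM in FL, with a log2 fold change of 0.33 (standard error 0.23), the smallest of the 9.

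Mmp9 (ENSMUSG00000017737, chr2:164940780-164955850, plus strand) encodes gelatinase B, the marker enzyme of tertiary granules. Mmp9 stood at 1.07, 1.69, 1.40, 1.32 and 2.32 FPKM in HET libraries 1 to 5, against 0.35, 0.37, 0.84, 0.32 and 0.49 FPKM in FL libraries 1 to 5. Every HET library lay above every FL library, which held for no other of the 9 genes. The mean was 1.56 ± 0.479 FPKM in HET and 0.474 ± 0.215 FPKM in FL, 3.29 times the FL mean, with a log2 fold change of 0.79 (standard error 0.17). Mmp9 reached 1 FPKM in 5 HET and 0 FL libraries, so it entered the tested genes only through the group in which it is high. Its log2 fold change was 1.56 with a pseudocount of 0.1 in place of 1.

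Counted over the 9 genes, 9 had a higher mean log2 value in HET, where 22.7% of all tested genes did. Counts of higher and lower genes in the lists that follow are of mean log2 values too, and are read against that 22.7% higher. All HET libraries lay above all FL libraries for 1 of 9 (Mmp9), against 0.222% of all tested genes. All HET libraries lay above the FL median for 6 of 9, against 3.74% of all tested genes. Because the genes were chosen by this difference, nothing is read from these counts. HET 1 and HET 5 lay above the FL maximum for 9 of 9 genes, HET 4 for 6, HET 2 for 4 and HET 3 for 2. Without HET 1 and FL 5 the log2 fold changes were 1.31 for S100a8, 1.98 for S100a9, 1.16 for Ltf, 0.62 for Lcn2 and 0.54 for Camp. They were then 1.31 for Ngp, 0.92 for Chil3, 0.20 for Mmp8 and 0.87 for Mmp9. Mmp8 and Camp moved most in proportion.

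In HET the order of the means ran S100a8, S100a9, Ngp, Camp, Chil3, Lcn2, Ltf, Mmp8 and Mmp9. In FL it was the same except that Lcn2 stood above Chil3. Neighbours in the HET order had overlapping ranges throughout, although S100a8 exceeded S100a9, S100a9 exceeded Ngp, Ngp exceeded Camp, Lcn2 exceeded Ltf, and Ltf exceeded Mmp8 within each of the 5 libraries. In FL the ranges of Chil3 and Ltf, and of Mmp8 and Mmp9, did not overlap.

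The sum of the 9 genes was 669, 356, 202, 542 and 764 FPKM in HET libraries 1 to 5, against 176, 102, 201, 177 and 298 FPKM in FL libraries 1 to 5. HET 3 lay beside FL 3 and below FL 5, and the other 4 HET libraries lay above all FL libraries. The mean sum was 507 ± 229 FPKM in HET and 191 ± 70.6 FPKM in FL, 2.65 times the FL mean. S100a8 and S100a9 made up 79.8% to 87.4% of the sum in HET and 76.6% to 83.9% in FL. Leaving both out, the sum was 86.9 ± 49.6 FPKM in HET and 39.1 ± 16.5 FPKM in FL, 2.22 times the FL mean. The 9 genes took 0.0194% to 0.0717% of all FPKM in HET libraries and 0.0111% to 0.0295% in FL libraries. In bulk libraries of this kind, fewer or more cells of a type and less or more RNA per cell cannot be told apart.

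Within each group the 9 genes varied together from library to library. HET 5 was highest in its group for 7 genes and HET 1 for the other 2, while HET 3 was lowest for 7. In FL, FL 5 was highest for 5 genes and FL 3 for 3, while FL 2 was lowest for 5. After the group means were removed, Pearson's r over the 10 libraries was above 0 for 36 of 36 gene pairs, with a median of 0.67 and a range from 0.16 for Camp and Mmp9 to 0.95 for Camp and Chil3. These r values are descriptions over libraries that share tissue, sort and amplification. Depth and the number of genes detected may enter them.

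**Figure D2:**
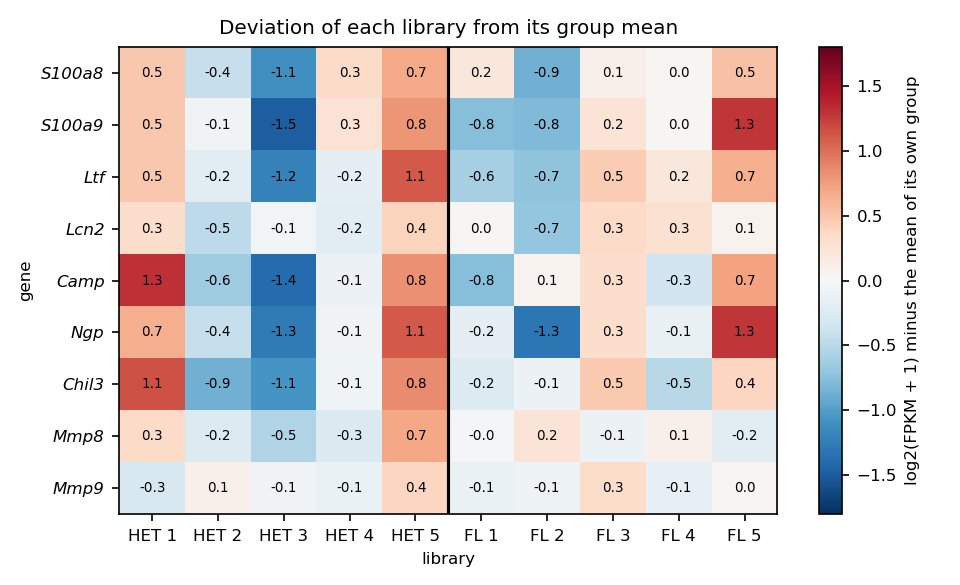
Deviation of each gene (rows) in each library (columns, HET left of FL) from the mean of its own group, on the log2(FPKM + 1) scale, in colour and figures. HET 3 was lowest in its group for 7 of 9 genes and HET 5 highest for 7 of 9. The Mmp9 row varied least on this scale, which understates changes of low genes. The coefficient of variation of Mmp9 was 30.7% in HET and 45.3% in FL, above that of Lcn2 (26.6% and 28.1%).

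Ltf lay closest to the shared pattern. Its r with the mean standardized deviation of the other 8 genes was 0.96, followed by 0.91 for Ngp, 0.85 for Chil3, 0.85 for S100a8, 0.84 for S100a9, 0.83 for Camp, 0.61 for Lcn2, 0.58 for Mmp8 and 0.32 for Mmp9. Without HET 3 and HET 5, the libraries farthest from the median, r with the mean of all 9 was 0.93 for Ltf and 0.91 for Ngp, but 0.093 for Mmp8 and 0.094 for Mmp9. The likeness of the metalloproteinases to the rest thus rested on those 2 libraries. Among all tested genes, the median r with the mean of the 9 was -0.05, and 3.28% of genes had r above 0.5.

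The genes outside the 9 with the most similar pattern by this r, over 10 libraries, were Golga5 (0.92), Rnf6 (0.88), Ccng1 (0.88), Cetn2 (0.87), Neurl3 (0.87), Eef2k (0.86), Rsrp1 (0.85), Txnip (0.84), Malat1 (0.84) and Eya2 (0.82). Without HET 3 and HET 5 their r ran from 0.54 for Eya2 to 0.91 for Eef2k. With S100a8 and S100a9 left out of the pattern, 8 of these 10 genes stayed among the top 10. No other neutrophil granule gene was among them. Among azurophil genes, r was -0.64 for Mpo, -0.59 for Prtn3, -0.49 for Ctsg, -0.47 for Prss57 and -0.37 for Elane. It was -0.07 for Serpinb1a, -0.01 for Ctsc and 0.37 for Srgn. Of the azurophil list only Srgn and Lyz2 had r above 0, so most of these genes ran opposite to the 9. Without HET 3 and HET 5, r was -0.43 for Mpo and -0.18 for Prtn3. It then ran from -0.13 for Ctsg to 0.29 for Srgn in the other azurophil genes named here. Lyz2, a lysozyme of both granule types and of monocytes, had r = 0.63, and 0.18 without those libraries.

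The azurophil genes, of the granule stage before, were abundant in both groups. The azurophil list held 12 genes, all tested, of which 8 had a higher and 4 a lower mean in HET, 0 passed limma and 0 had an unadjusted p under 0.05. Their median log2 fold change was 0.09 against -0.17 for all tested genes, and under median-ratio scaling it was 0.31 with 10 of 12 higher. Mpo, myeloperoxidase, averaged 9573 ± 1937 FPKM in HET and 8250 ± 1147 FPKM in FL (limma adjusted p = 0.566). Elane, neutrophil elastase, averaged 3550 ± 1128 FPKM in HET and 3202 ± 921 FPKM in FL (limma adjusted p = 0.78). Both stood far above the late genes, of which S100a8 was the highest. Ctsg, cathepsin G, averaged 2213 ± 671 FPKM in HET and 1677 ± 380 FPKM in FL (limma adjusted p = 0.498), and Prtn3, proteinase 3, 1952 ± 451 FPKM in HET and 1615 ± 257 FPKM in FL (limma adjusted p = 0.526). Ctsc, the cathepsin that activates these proteases, averaged 26 ± 9.22 FPKM in HET and 32.3 ± 5.74 FPKM in FL (limma adjusted p = 0.498).

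The 9 late genes summed to 3.98%, 1.82%, 0.913%, 2.18% and 5.08% of the azurophil sum in HET libraries 1 to 5, against 0.879%, 0.724%, 1.42%, 0.94% and 1.72% in FL libraries 1 to 5. HET 3 lay within the FL range and the other 4 HET libraries above it. The mean share was 2.80 ± 1.70% in HET and 1.14 ± 0.417% in FL. The log2 ratio of late to early sums was higher in HET by 1.13, and by 1.11 without HET 1 and FL 5, a value whose numerator was chosen by this contrast. HET 5 and HET 1, with the highest late sums, had the lowest azurophil sums of their group, 15037 and 16792 FPKM, against 19540 to 24810 FPKM in the other HET libraries.

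**Figure D3:**
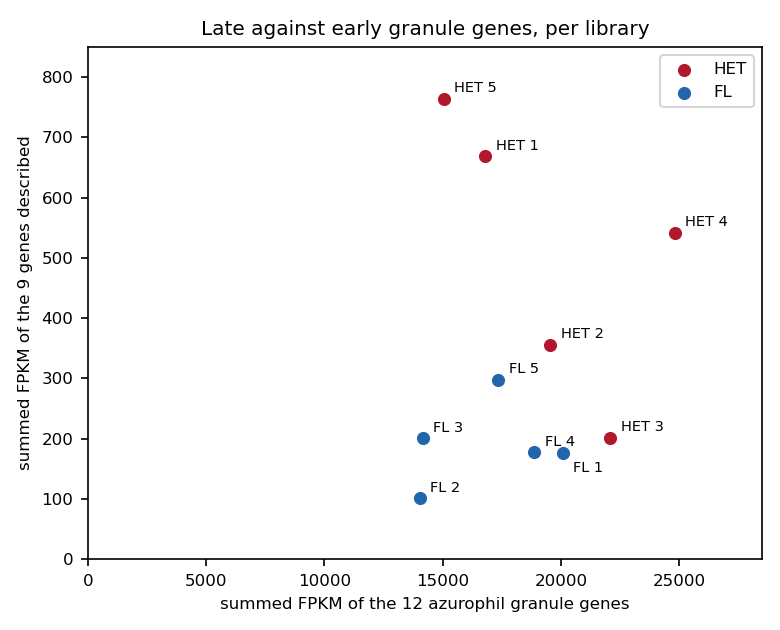
Summed FPKM of the 9 genes (vertical axis) against summed FPKM of the 12 azurophil granule genes (horizontal axis) in each HET library (red) and FL library (blue). HET 5 and HET 1 combined the highest late sums (764 and 669 FPKM) with the lowest azurophil sums of HET, and HET 3 lay beside the FL libraries at 202 FPKM.

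Other genes of late neutrophil maturation had means on both sides of FL. Of 24 such genes on a list, 13 were tested, with 7 above and 6 below FL, 0.01 as the median log2 fold change (0.19 under median-ratio scaling, 10 of 13 higher), and 0 passing limma or an unadjusted p under 0.05. A further 9 stayed under 1 FPKM in every library, among them Olfm4, Itgb2l and Ceacam10, and 2 of these (Stfa2 and BC100530) were listed at 0 throughout. Retnlg, a resistin-like protein of neutrophils, averaged 21.9 ± 8.79 FPKM in HET and 16.8 ± 6.22 FPKM in FL (limma adjusted p = 0.646). Pglyrp1, a peptidoglycan-binding granule protein, averaged 54.8 ± 20.1 FPKM in HET and 63.2 ± 16.6 FPKM in FL (limma adjusted p = 0.624). Lrg1, a granule glycoprotein, averaged 4.2 ± 1.94 FPKM in HET and 5.82 ± 2.16 FPKM in FL (limma adjusted p = 0.515). Without HET 1 and FL 5, Lrg1 passed at a lower level in HET (limma adjusted p = 0.0318), as did 5506 of all 13041 tested genes. Hp, haptoglobin, averaged 43.9 ± 13.4 FPKM in HET and 50.3 ± 12.2 FPKM in FL (limma adjusted p = 0.634), and Slpi, a protease inhibitor, 61.6 ± 23.8 FPKM in HET and 48.7 ± 17.8 FPKM in FL (limma adjusted p = 0.637).

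Cd177, a neutrophil surface glycoprotein kept with the secondary granules in human cells, was below the filter and not tested. Cd177 stood at 1.83, 1.39, 0.91, 0.96 and 2.75 FPKM in HET libraries 1 to 5, against 0.33, 0.31, 0.77, 0.52 and 0.68 FPKM in FL libraries 1 to 5. Its groups did not overlap, and, like most of the 9 genes, it was highest in HET 5 and HET 1. Ly6g, the surface antigen that defines mouse neutrophils, was also not tested. Ly6g stood at 0.84, 0.29, 1.56, 0.34 and 0.08 FPKM in HET libraries 1 to 5, against 0.11, 0.07, 0.11, 0.35 and 0.27 FPKM in FL libraries 1 to 5. Ly6g was highest in HET 3, where the 9 genes were low, and lowest of HET in HET 5, where they were high. In HET 1, where the 9 genes were also high, Ly6g lay above every FL library. Its mean was 0.622 FPKM in HET and 0.182 FPKM in FL, and all its values were low (0.07 to 1.56 FPKM). HET 3 also had the most genes of HET at 1 FPKM or more (15589). The part of this trait in its Ly6g value was not tested.

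The 6 defining neutrophil markers (Ly6g, Itgam, Cxcr2, Cd177, Retnlg and Fcgr4) summed to 22.3 to 47.9 FPKM in HET and 24.1 to 36.6 FPKM in FL, with none listed at 0 in all libraries. Itgam, which encodes CD11b, averaged 5.2 ± 1.25 FPKM in HET and 5.39 ± 0.707 FPKM in FL (limma adjusted p = 0.865). Cxcr2, a chemokine receptor of mature neutrophils, averaged 4.57 ± 0.96 FPKM in HET and 3.93 ± 0.749 FPKM in FL (limma adjusted p = 0.628). Of the 4 tested markers 2 had a higher and 2 a lower mean in HET, and 0 passed limma or an unadjusted p under 0.05. Of 13 tested genes for surface receptors and cytokines of mature neutrophils, 4 were higher and 9 lower in HET (7 higher under median-ratio scaling and without HET 4), again with 0 passing limma or an unadjusted p under 0.05. Without HET 1 and FL 5, 3 of them passed at a lower level in HET (Ccl6, Clec4d and Fcgr4), as did 5506 of all 13041 tested genes. Csf3r, the receptor for G-CSF, averaged 26.4 ± 2.84 FPKM in HET and 23.9 ± 2.04 FPKM in FL (limma adjusted p = 0.584).

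**Figure D4:**
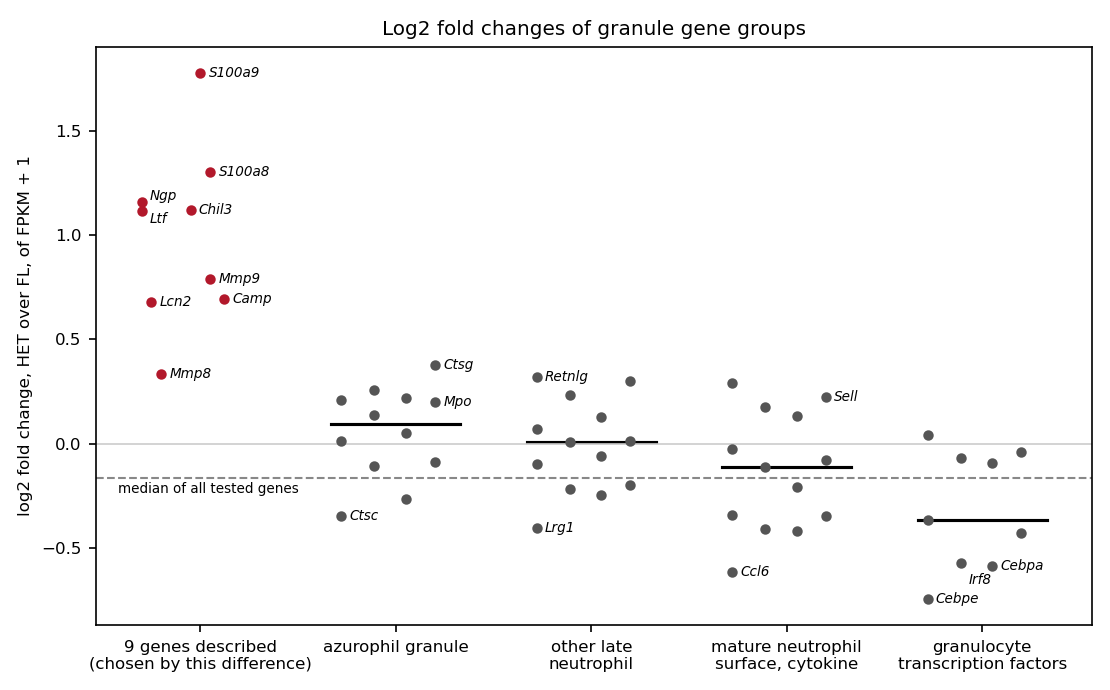
Log2 fold change of FPKM + 1, HET over FL (vertical axis), for the 9 genes (red, chosen by this difference) and for tested genes of 4 lists (grey), with the list median as a bar and the median of all tested genes, -0.17, as a dashed line. The azurophil and other late neutrophil lists had medians of 0.09 and 0.01, and the transcription factors -0.37, and none of these list genes passed limma.

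The lists of transcription factors, receptors and metalloproteinases had about the share of lower genes found over all tested genes. Of the 9 granulocyte transcription factors tested, 1 was higher and 8 lower (4 higher under median-ratio scaling, and 0 to 3 as single libraries were left out). The median log2 fold change was -0.37, and -0.16 under that scaling, with 0 passing limma and 3 lower at an unadjusted p under 0.05. Cebpe, the C/EBP-epsilon gene, held 27.6, 9.83, 15.5, 14.7 and 7.69 FPKM in HET libraries 1 to 5, against 33.1, 30.7, 20.9, 22.0 and 15.8 FPKM in FL libraries 1 to 5. HET 5, the library highest in most of the 9 genes, was the lowest of all in Cebpe. HET 1, where the 9 genes were also high, was the highest of HET in Cebpe. The r of Cebpe with the mean of the 9 was -0.32, and 0.02 without HET 3 and HET 5. The means were 15.1 ± 7.73 FPKM in HET and 24.5 ± 7.2 FPKM in FL, with a log2 fold change of -0.74 (limma adjusted p = 0.472). Cebpa, which acts earlier in the granulocyte lineage, averaged 2.49 ± 0.553 FPKM in HET and 4.25 ± 0.851 FPKM in FL (log2 fold change -0.59, limma adjusted p = 0.472). All HET libraries lay below all FL libraries in Cebpa, and the share of all tested genes with that split is not given here. Irf8, a factor of the monocyte branch, averaged 109 ± 39.2 FPKM in HET and 159 ± 29.0 FPKM in FL (limma adjusted p = 0.472). Spi1, the PU.1 gene, averaged 105 ± 19.3 FPKM in HET and 109 ± 10.3 FPKM in FL (limma adjusted p = 0.782). Without HET 1 and FL 5, 5 of the 9 passed at a lower level in HET (Cebpa, Cebpe, Irf8, Runx1 and Klf5), in a comparison in which 5954 of all 13041 genes passed.

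Relatives of the 9 genes had means on both sides of FL. Of 7 tested members of the S100 family outside calprotectin, 4 stood above and 3 below FL, the median log2 fold change being 0.03, and 0 passed limma. S100a10, the annexin A2 partner, averaged 152 ± 21.4 FPKM in HET and 130 ± 20.7 FPKM in FL (limma adjusted p = 0.491), and S100a13 averaged 22.3 ± 5.52 FPKM in HET and 28.8 ± 4.17 FPKM in FL (limma adjusted p = 0.472). Of 7 tested metalloproteinases and inhibitors outside Mmp8 and Mmp9, 1 was higher and 6 lower, with a median of -0.29 and 0 passing limma. Without HET 1 and FL 5, 4 of the 7 passed at a lower level in HET, as did 5506 of all 13041 tested genes. Mmp14, a membrane-bound metalloproteinase, held 4.07, 3.53, 3.97, 3.88 and 1.77 FPKM in HET libraries 1 to 5, against 12.1, 13.3, 8.68, 8.32 and 3.03 FPKM in FL libraries 1 to 5. It thus ran opposite to Mmp9, with only FL 5 inside the HET range. Its log2 fold change was -1.09 (limma adjusted p = 0.472, and 0.0114 without FL 5). FL 5 was the overlapping library, so nothing is read from the second value. Without FL 5, 379 of all 13041 tested genes passed at a lower level in HET. Timp1, the inhibitor known for binding gelatinase B, stayed under 1 FPKM, and Timp2 averaged 1.14 ± 0.207 FPKM in HET and 1.61 ± 0.216 FPKM in FL (limma adjusted p = 0.472).

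Of 8 tested receptors for the secreted proteins, 1 was higher and 7 lower in HET, with a median of -0.27 against -0.17 over all tested genes, 0 passing limma and 2 lower at an unadjusted p under 0.05. Without HET 1 and FL 5, 5 of the 8 passed at a lower level in HET, as did 5506 of all 13041 tested genes. Slc22a17, described as a lipocalin 2 receptor, held 1.37, 1.35, 1.12, 0.67 and 1.96 FPKM in HET libraries 1 to 5, against 4.05, 4.66, 2.89, 2.40 and 1.64 FPKM in FL libraries 1 to 5. Only FL 5 overlapped the HET libraries, and the log2 fold change was -0.82 (limma adjusted p = 0.472, and 0.037 without FL 5). Leaving out FL 5 removes the overlapping library, so nothing is read from the second value. Without FL 5, 379 of all 13041 tested genes passed at a lower level in HET. Lrp1, a scavenger receptor that takes up lactoferrin, averaged 2.23 ± 1.42 FPKM in HET and 5.57 ± 2.86 FPKM in FL (limma adjusted p = 0.472). Bsg and Emb, described as calprotectin receptors, averaged 389 ± 75.8 and 153 ± 19.8 FPKM in HET, against 376 ± 12.3 and 161 ± 19.3 FPKM in FL.

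Markers of other blood cells were present in all libraries, and their sums overlapped between the groups except for the megakaryocyte list. The 12 monocyte and macrophage genes summed to 645 to 1207 FPKM in HET and 475 to 925 FPKM in FL, with 4 higher and 8 lower (1 and 11 without HET 1). The B lineage and plasma cell list, 6 of 7 tested genes higher in HET, summed to 8068 to 101900 FPKM in HET and 2623 to 10910 FPKM in FL. Most of that sum was Ighm (11350 ± 12560 FPKM in HET, 1006 ± 424 FPKM in FL) and Igkc (25320 ± 26640 and 4664 ± 2826 FPKM). Of 5 tested T and NK genes 4 were higher, 2 of them at an unadjusted p under 0.05 in limma. The T and NK sums were 437 to 808 FPKM in HET and 425 to 763 FPKM in FL. Most of these sums was Nkg7, the 1 lower gene (497 ± 133 FPKM in HET, 556 ± 117 FPKM in FL), so they hide the other genes. All 9 erythroid genes tested had lower mean log2 values in HET, with 2 higher under median-ratio scaling and 5 higher without HET 5. All 8 megakaryocyte genes tested had lower mean log2 values, with 2 higher under that scaling, and the list summed to 1007 to 1834 FPKM in HET and 1857 to 2471 FPKM in FL. Of 10 eosinophil, basophil and mast cell genes 2 were higher, and of 11 HSC genes 6 were higher (2 without HET 1). None of these genes passed limma, and the part of such cells in the levels of the 9 late genes was not tested.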

How the data were processed

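RNA of sorted HSCs was amplified by the Geo-seq method and made into libraries with a transposase kit, per the labels' protocols, which name no molecular identifiers and no strand. The authors deposited FPKM (fragments scaled to transcript length and library size) for 52096 genes in 10 libraries. Per the submitters' processing notes, reads belong to mm10. Per the same submitters' processing notes, the authors' tools included HTSeq, Cufflinks 2.1.1, Bowtie 0.12.9 and DESeq2, with their roles not stated. All identifiers matched GENCODE M21 (GRCm38), which gave symbols and coordinates, and promoters came from RefSeq (GRCm38.p6). FPKM sums were 896054 to 1066190 per library. Without read totals, no counting error was computed. No 2 libraries were duplicates, with at most 0.767% identical values.

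Genes with at least 1 FPKM in at least 5 libraries were compared as log2(FPKM + 1), a scale that understates changes of low genes, by limma 3.58.1 (R 4.3.3) with trend, robust shrinkage, a genotype term alone, and p-values adjusted by Benjamini-Hochberg (0.05). The fit was tested on simulated data. The 9 genes, the lists and the tests were chosen with earlier results of these data known. Named genes were the 9, Nup214, the gate genes, the neutrophil markers, up to 6 (azurophil and late neutrophil) or 4 genes per list by smallest p, up to 2 by level, and the 10 most similar genes. Those of the lists for other blood cells are given only as counts and sums, apart from Ighm, Igkc and Nkg7, named for their part in the sums. Cd177, Ly6g, Lyz2, Runx1, Timp1, Olfm4, Itgb2l, Ceacam10, Stfa2, BC100530 and Clec4d are named as list members, some after their values were seen. Similarity was Pearson's r, after removal of group means, with the mean standardized deviation of the 9. Tables and plots used Python 3.11.15, pandas 2.3.3 and matplotlib 3.10.9.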

Additional observations from a re-analysis of the deposited data

How the results depend on the processing

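The 9 late genes had a higher mean in HET in 19 of 19 alternatives, and their log2 fold changes kept their sign in all of them. The genes were chosen by this difference and the alternatives reuse the same libraries, so this is no support for the difference. The log2 ratio of their sums was 1.41 and ran from 1.15 (without S100a8 and S100a9) to 1.63 (without FL 5). The late to early ratio ran from 0.85 without HET 5 to 1.47 without HET 3. Nup214 ran from -2.0 to -1.39 and kept its call in the permutation test. Its limma adjusted p, 0.472, was 0.11 with the replicate block and 0.000376 under quality weights. The number of genes passing, 0 in the 13041 tested, was 1 under median-ratio scaling, 5954 without FL 5 and HET 1, and 6869 under quality weights. Leaving out 1 library gave 0 to 409 genes, the highest without FL 5, and 1 each without HET 1, HET 2 or HET 5. The cause was not tested. Of the other late neutrophil genes, 7 of 13 were higher, against 13 of 22 with no filter, 1 under quality weights, and 4 when both HET 1 and FL 5 were left out. With the replicate number as a block (replicate block), 0 genes passed and 236 higher and 2198 lower genes had an unadjusted p under 0.05. The labels do not say that a number marks shared animals or days, so the libraries were not treated as paired. Same-numbered deviations had r of 0.21, -0.17, -0.16, 0.23 and 0.15, and 3 of 5 matched their own number best, a hint from the data that leaves some pairing possible. The late genes are low, so Mmp8, Mmp9 and Ltf rest on few fragments, and their depth is unknown.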
